A study of Mus musculus with 6 samples.

Results

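The receptors described here bind the neurotransmitters and hormones that act on the gut wall. They were found by gene symbol in the RNA-Seq table and comprise the muscarinic and nicotinic acetylcholine receptors, the adrenergic, serotonin, tachykinin, endothelin, VIP, neuropeptide Y, galanin, histamine, somatostatin, opioid, and angiotensin receptors, and the P2X receptors for ATP. The symbol rule found 77 of the 27546 rows of the table, of which 75 are receptor genes. The other rows are Agtrap, whose product binds the angiotensin receptor, and Chrna1os, an antisense RNA, and neither is counted below. The rule works on names and uses no measured value, but the families it covers were picked with earlier results of these data known.

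RNA-Seq was performed on distal colon of 3 Gm31629-/- mice and 3 WT littermates on the C57BL/6 background, 1 library per mouse. Gm31629 is a long noncoding RNA, and the knockout targeted its sequence on chromosome 1, with no cell type-specific driver named in the methods. Both groups were 8 weeks old and drank 3% DSS (dextran sulfate sodium, which damages the lining of the colon and causes colitis) for 7 days before they were killed on day 8, so that the comparison is between genotypes under injury, with no untreated mice. The 3 mice of a genotype are the replicates, and for a single gene 3 against 3 mice cannot give an exact permutation p below 0.10. The methods describe the RNA as pooled and the mice as male. The table nevertheless holds a column per mouse, and Y-linked transcripts were present, with Xist nearly absent, only in the library of Gm31629-/- mouse 1, so results were also computed without that library. Depth was even, at 18005400 to 18795400 fragments per library, and the 3 Gm31629-/- libraries listed 22456 to 23600 genes above 0 against 19938 to 20118 in WT. The level of Gm31629 itself was not analysed here, so the genotype labels could not be checked against it.

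In the gut, acetylcholine from enteric motor neurons contracts smooth muscle through muscarinic receptors, and nicotinic receptors carry fast transmission between enteric neurons. Tachykinins and endothelins contract muscle, whereas VIP and norepinephrine mostly relax it, and serotonin from enteroendocrine cells excites sensory nerve endings. Epithelial cells carry receptors of their own, including those for VIP, somatostatin, and norepinephrine, through which secretion and absorption are set.

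Values are FPKM, which are fragments divided by gene length and library depth, so levels can be compared between genes. A gene was tested with limma on log2(FPKM + 1) if its mean over the 6 mice was at least 0.5 FPKM, and called if its Benjamini-Hochberg adjusted p over all 14657 tested genes was under 0.05 and its log2 fold change (Gm31629-/- over WT) was above 1 or below -1. Of the 75 receptor genes, 30 were tested and 45 fell below the filter. At these thresholds 17 receptor genes were higher and 2 were lower in Gm31629-/- mice, against 18.4% of all tested genes called higher and 4.64% called lower. The share among tested receptors cannot be read as a property of the family, because 17 of the 30 passed the filter only through their level in Gm31629-/- mice, their WT mean being under 0.5 FPKM, and 14 of the 17 higher calls were among these. Over all 75 receptor genes, the 3 Gm31629-/- mice lay above the 3 WT mice for 44, below them for 7, and overlapped them for 24. The corresponding shares over all 27546 rows were 31.0% above and 12.6% below. Overlap was read off FPKM, so equal fragment counts can count as separate, as for Adra1a and Adra1d among the 44 (1 fragment against 1). The mean was higher in Gm31629-/- mice for 62 of the 75, or 82.7%, against 67.4% of all rows. With every row entered into the fit, the median log2 fold change of the 75 genes was 0.25, against 0.06 over all rows. The 30 tested receptors had a median of 1.08, against 0.15 for all tested genes.

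The direction differed with the level in WT colon, which enters both the split and the comparison, so that the following counts are a description. Only 9 receptor genes had a WT mean of at least 1 FPKM, and both lower calls were among these 9. In 5 of the 9 (Vipr1, Sstr1, Chrnb4, Chrm1, and Htr4) the Gm31629-/- mice lay below the WT mice without overlap, and in the other 4 (Adra2a, P2rx4, Hrh1, and Sstr2) the groups overlapped. Of the 66 genes under 1 FPKM in WT, 44 lay above WT without overlap and 2 below, and all 17 higher calls were among the 66. The same split was not made over all genes, so these counts have no share at a like WT level beside them. In Gm31629-/- mice 28 receptor genes had a mean of at least 1 FPKM. A total of 17 receptor genes were listed at 0 in all 3 WT mice, which allows up to 3 fragments over the group. All 27546 rows of the table were above 0 in at least 1 mouse, so these 17 were bound to be above 0 in a Gm31629-/- mouse. Among them, Chrnb3, Chrnd, Htr2c, and Oprm1 rest on 1 fragment each. None of the 75 was at 0 in all 3 Gm31629-/- mice. The share of rows at 0 in WT was not counted over the whole table. Because these are tissue samples and not sorted cells, a difference in the cells or wall layers sampled and a change in RNA per cell cannot be told apart. The groups differed widely in markers of the muscle wall, given further on (smooth muscle sums of 13.1 to 34.4 FPKM in WT against 1310 to 2018 FPKM).

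**Figure D1:**
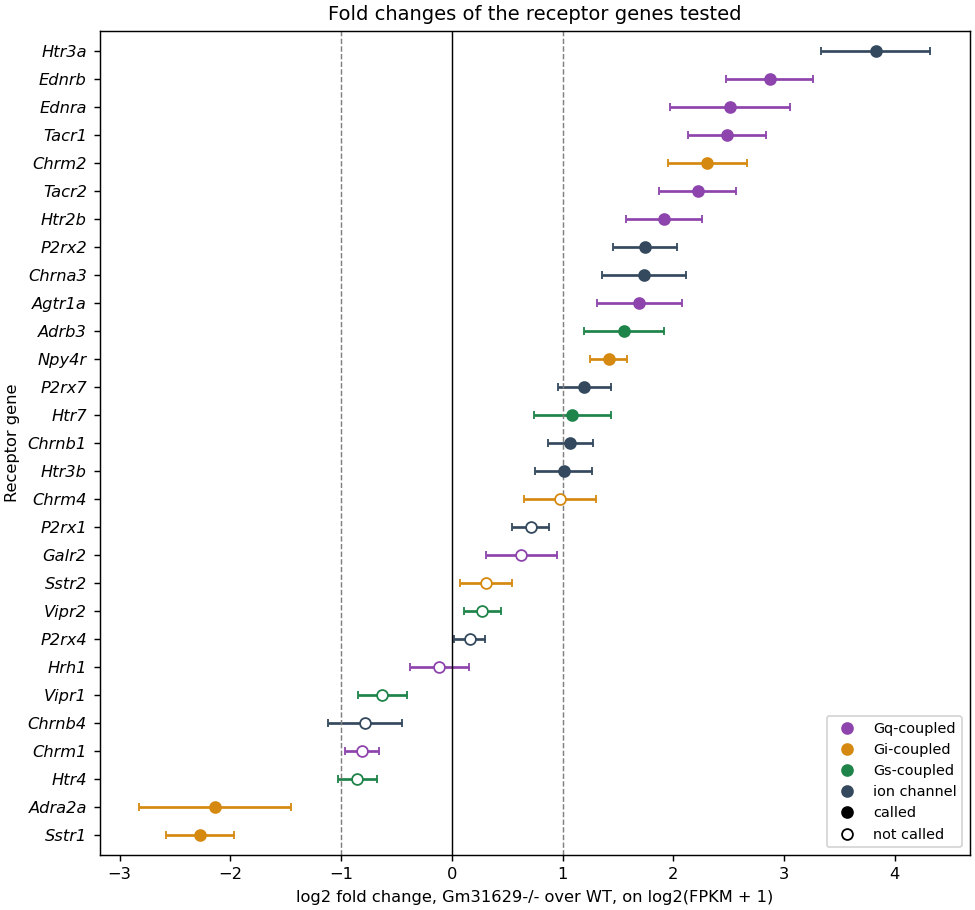
Log2 fold changes (Gm31629-/- over WT, on log2(FPKM + 1), x axis) of 29 of the 30 receptor genes tested. Points are limma estimates from 3 against 3 mice, bars are 1 standard error on each side, colors give the coupling of the receptor, filled points were called, and dashed lines mark the fold threshold. The genes called higher run from Htr3b at 1.01 to Htr3a at 3.82, and Adra2a and Sstr1 stand apart at the bottom at -2.14 and -2.28.

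Among the 4 muscarinic receptors, Chrm2 was called higher, whereas Chrm1 lay below WT. Chrm2 (ENSMUSG00000045613, chromosome 6, 36388084 to 36528414 of GRCm38), a Gi-coupled receptor that is abundant on gut smooth muscle, was at 8.01, 3.19, and 2.26 FPKM in Gm31629-/- mice 1, 2, and 3 and at 0.00893, 0.00918, and 0 FPKM in WT mice 1, 2, and 3. The WT values rest on 2 fragments in all against 1499 in Gm31629-/- mice, a ratio of 750.5 with a 95% interval of 207 to 6203 for counting error only. Its log2 fold change was 2.30 (SE, the standard error, 0.36, limma adjusted p = 0.00278). Chrm1, a Gq-coupled receptor, had 1.21, 1.3, and 0.948 FPKM in Gm31629-/- mice against 2.71, 2.67, and 2.94 FPKM in WT mice. All Gm31629-/- mice were below all WT mice for Chrm1, yet the fitted change of -0.81 (SE 0.15, limma adjusted p = 0.00578) stayed inside the fold threshold. Chrm4 had 1.92, 2.45, and 0.416 FPKM against 0.263, 0.116, and 0.333 FPKM and was not called at a log2 fold change of 0.98 (limma adjusted p = 0.047). Chrm3, the Gq-coupled receptor that triggers contraction, was below the filter, at 0.704, 0.399, and 0.296 FPKM in Gm31629-/- mice and 0.242, 0.346, and 0.247 FPKM in WT mice, and its groups overlapped.

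Nicotinic receptors are ion channels assembled from separate subunit genes, and 15 subunits were listed, of which 3 were tested. Chrna3, the alpha subunit of the main ganglionic receptor, was at 3.10, 4.25, and 0.786 FPKM in Gm31629-/- mice and at 0.0103, 0.0211, and 0.0101 FPKM in WT mice, for a log2 fold change of 1.73 (SE 0.38, limma adjusted p = 0.00998). Gm31629-/- mouse 3 was the lowest of its group and still far above every WT mouse. Chrnb4, the beta subunit that pairs with it, did not follow it, with 3.30, 3.68, and 0.994 FPKM in Gm31629-/- mice against 4.46, 4.49, and 5.87 FPKM in WT mice and a log2 fold change of -0.79 (SE 0.33, limma adjusted p = 0.0937). Chrna5, Chrna3, and Chrnb4 are neighbors on chromosome 9 (54980880 to 55007779, 55010111 to 55026562, and 55028154 to 55048779), with 2331 and 1591 bases between them, and Chrna5 was at 0.33, 0.381, and 0.0871 FPKM against 0, 0, and 0.034 FPKM. Thus Chrnb4 was above 4 FPKM in WT colon while both neighbors were at or near 0 there. Chrnb1, a subunit known from the neuromuscular junction, was at 2.28, 3.70, and 2.82 FPKM against 0.598, 0.790, and 1.22 FPKM, and its log2 fold change was 1.07 (SE 0.21, limma adjusted p = 0.00647). That call was lost without Gm31629-/- mouse 2 (0.93) or WT mouse 1 (0.96), where the change fell under the fold threshold. The 12 subunits below the filter were at or below 0.854 FPKM in every mouse, and Chrnb2 was the most abundant, at 0.804, 0.854, and 0.455 FPKM against 0.206, 0.258, and 0.375 FPKM. Of the exon bases of Chrnb2, 16.3% are shared with Adar on the opposite strand, and fragments there cannot be assigned to either gene. Chrna1 lay below WT, at 0.149, 0.0494, and 0.174 FPKM against 0.357, 0.380, and 0.303 FPKM.

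The adrenergic receptors held both directions. Adrb3, the Gs-coupled receptor best known from adipocytes, was at 1.32, 5.14, and 1.58 FPKM against 0.032, 0.148, and 0.221 FPKM, for a log2 fold change of 1.56 (SE 0.36, limma adjusted p = 0.013). Gm31629-/- mouse 2 was the highest, and the groups did not overlap. Of the exon bases of Adrb3, 24.9% are shared with Gm45470 on the opposite strand, and the kit does not mark strand, so fragments there cannot be assigned to either gene.

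Adra2a (ENSMUSG00000033717, chromosome 19, 54044151 to 54048982), a Gi-coupled receptor through which norepinephrine limits transmitter release and epithelial secretion, was the most abundant adrenergic receptor in WT colon. It was at 18.6, 37.3, and 33.4 FPKM in WT mice and at 20.2, 1.97, and 3.81 FPKM in Gm31629-/- mice 1, 2, and 3. Gm31629-/- mouse 1 thus lay inside the WT range, whereas mice 2 and 3 lay below it. Adra2a was called lower at a log2 fold change of -2.14 (SE 0.68, limma adjusted p = 0.0398), but the call was retained in only 1 of the 6 fits that each left out a mouse, the one without Gm31629-/- mouse 1. Its adjusted p was 0.00125 in that fit and 0.0613 to 0.119 in the other 5. Of the adrenergic receptors below the filter, which all lay above WT in FPKM without overlap, Adrb1 was the most abundant, at 0.567, 0.914, and 0.612 FPKM against 0.195, 0.0669, and 0 FPKM. For Adra1a and Adra1d, however, the lowest Gm31629-/- mouse and WT mouse 3 had 1 fragment each, so their separation came from depth scaling.

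Of the 12 serotonin receptors, 4 were called higher, and Htr3a had the largest change of all receptors tested. Htr3a (ENSMUSG00000032269, chromosome 9, 48899213 to 48911099), the subunit that every serotonin-gated channel needs, was at 18.1, 24.7, and 5.10 FPKM in Gm31629-/- mice and at 0.026, 0.0267, and 0 FPKM in WT mice. Its log2 fold change was 3.82 (SE 0.49, limma adjusted p = 0.00143), and 1840 fragments stood against 2. Htr3b, the partner subunit 23908 bases away on the same strand, was at 0.969, 1.91, and 0.429 FPKM against 0 in all 3 WT mice, at least 49.1-fold higher against a floor of 3 fragments over the WT group. Mouse 2 was highest and mouse 3 lowest for both subunits. Htr3b was just past the fold threshold (1.01 with SE 0.26, limma adjusted p = 0.018), and leaving out any WT mouse raised the adjusted p to between 0.0522 and 0.0634.

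Htr2b, a Gq-coupled receptor of muscle, interstitial cells, and fibroblasts, was at 4.34, 3.97, and 1.12 FPKM against 0, 0.0261, and 0.025 FPKM, for a log2 fold change of 1.91 (SE 0.35, limma adjusted p = 0.00504). Of its exon bases, 11.8% are shared with Psmd1 on the opposite strand. Htr7, a Gs-coupled receptor that relaxes muscle, was at 0.671, 3.19, and 0.769 FPKM against 0.143, 0.114, and 0.0157 FPKM, and only Gm31629-/- mouse 2 was above 1 FPKM. Its call (log2 fold change 1.09 with SE 0.35, limma adjusted p = 0.0402) was lost without any single WT mouse, with adjusted p from 0.0913 to 0.121. Htr4, a Gs-coupled receptor found on epithelium and neurons, ran the other way, at 0.350, 0.0698, and 0.269 FPKM in Gm31629-/- mice against 1.33, 0.906, and 1.43 FPKM in WT mice. No Gm31629-/- mouse reached the lowest WT mouse for Htr4, and its log2 fold change was -0.85 (SE 0.17, limma adjusted p = 0.00784), inside the fold threshold. The 7 other serotonin receptors were at or below 0.218 FPKM in every mouse.

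**Figure D2:**
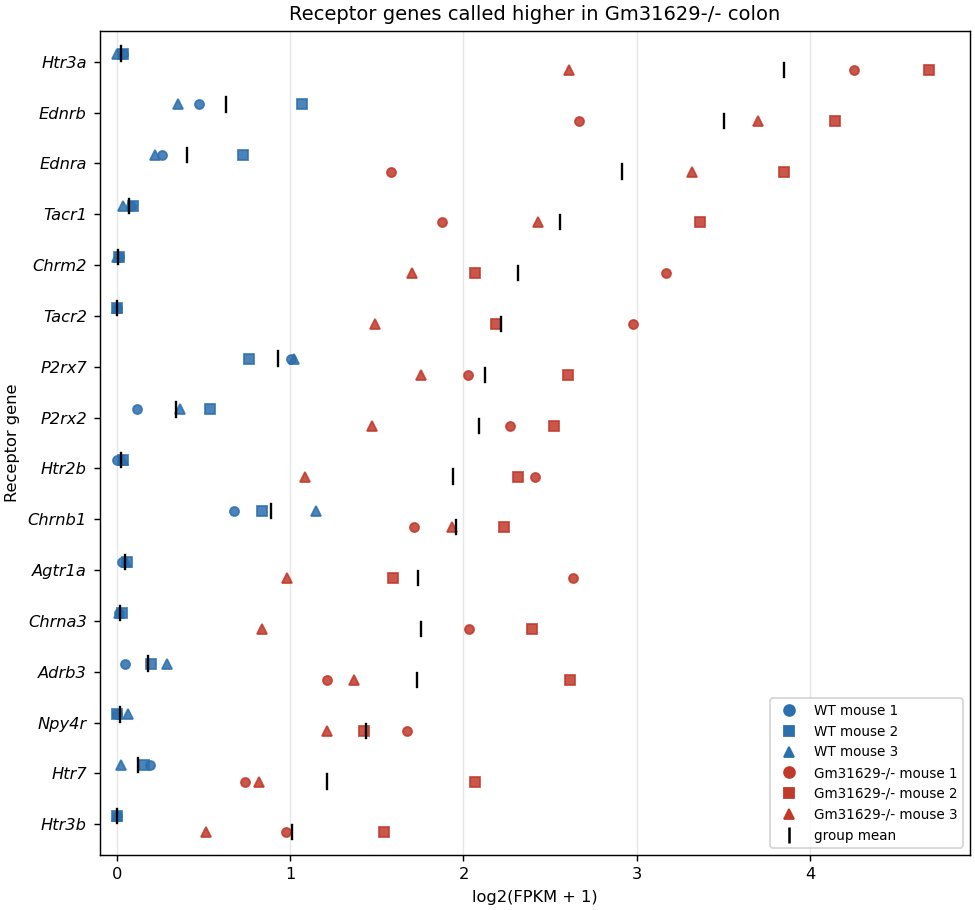
Level of 16 of the 17 receptor genes called higher, in each mouse, as log2(FPKM + 1) on the x axis. Blue symbols are WT mice, red symbols are Gm31629-/- mice, circles, squares, and triangles are mice 1, 2, and 3, and bars are means of 3 mice. For every gene shown the red symbols lie to the right of the blue ones, and the red symbols spread more widely, as for Htr3a from 5.10 to 24.7 FPKM.

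Tachykinin receptors respond to substance P and neurokinin A, and 2 of the 3 were tested. Tacr1 (ENSMUSG00000030043), the Gq-coupled receptor for substance P, was at 2.67, 9.30, and 4.39 FPKM in Gm31629-/- mice and at 0.0583, 0.0684, and 0.0246 FPKM in WT mice, for a log2 fold change of 2.49 (SE 0.35, limma adjusted p = 0.002). Tacr2 (ENSMUSG00000020081, chromosome 10, 62252438 to 62265990), the receptor for neurokinin A on smooth muscle, was at 6.88, 3.55, and 1.81 FPKM against 0 in all 3 WT mice. The 509 fragments of Tacr2 in Gm31629-/- mice against 0 in WT mice make it at least 170-fold higher when 3 fragments over the WT group are taken as the floor, and its log2 fold change was 2.22 (SE 0.35, limma adjusted p = 0.00296). The order of the Gm31629-/- mice differed between these receptors, since mouse 2 was highest for Tacr1 and mouse 1 for Tacr2. Tacr3 was below the filter, at 0.159, 0.101, and 0.101 FPKM against 0, 0.0148, and 0 FPKM.

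Both endothelin receptors were called higher. Ednrb (ENSMUSG00000022122), found on endothelium, muscle, and the neural crest lineage, was at 5.34, 16.7, and 12 FPKM in Gm31629-/- mice and at 0.388, 1.10, and 0.277 FPKM in WT mice, for a log2 fold change of 2.87 (SE 0.39, limma adjusted p = 0.00174). Ednra, the contractile receptor of vascular muscle, was at 1.99, 13.4, and 8.99 FPKM against 0.197, 0.659, and 0.165 FPKM, for a log2 fold change of 2.51 (SE 0.54, limma adjusted p = 0.00983). For both genes, Gm31629-/- mouse 2 was the highest and mouse 1 the lowest of the knockout mice.

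VIP receptors carried the highest level of the family and were not called. Vipr1 (ENSMUSG00000032528, chromosome 9, 121642720 to 121672950), the Gs-coupled receptor of the colonic epithelium, was at 44.9, 31.2, and 52.1 FPKM in Gm31629-/- mice and at 54.2, 72.5, and 70.6 FPKM in WT mice. Its groups did not overlap, and its log2 fold change was -0.63 (SE 0.22, limma adjusted p = 0.0542). That value was -0.89 with each library rescaled by its median ratio and 0.11 with libraries rescaled to the epithelial markers listed further on. Vipr2, the receptor of muscle, was at 1.17, 1.72, and 1.15 FPKM against 1.03, 0.946, and 0.811 FPKM, for a log2 fold change of 0.28 (SE 0.16, limma adjusted p = 0.211).

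Among the receptors for other peptides, Npy4r, the Gi-coupled receptor for pancreatic polypeptide, was called higher, at 2.19, 1.69, and 1.32 FPKM in Gm31629-/- mice against 0, 0, and 0.044 FPKM in WT mice (log2 fold change 1.42 with SE 0.17, limma adjusted p = 0.00104). Npy1r and Npy2r were below the filter and lay above WT, Npy1r at 0.771, 0.580, and 0.583 FPKM against 0.360, 0.129, and 0.0462 FPKM. Among the galanin receptors, Galr2 was the most abundant and was not called, at 2.04, 0.375, and 0.355 FPKM against 0.132, 0.113, and 0.217 FPKM (log2 fold change 0.63 with SE 0.32, limma adjusted p = 0.146). The level of Galr2 above 1 FPKM was from Gm31629-/- mouse 1 alone. All 3 opioid receptors were below the filter. The most abundant of them, Oprd1, was at 0.459, 0.377, and 0.0677 FPKM in Gm31629-/- mice and at 0.161, 0.0276, and 0.0132 FPKM in WT mice, and its groups overlapped. Oprk1 was at 0.6, 0.189, and 0.0416 FPKM against 0 in all WT mice, at least 46.7-fold higher over the same floor.

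Sstr1 (ENSMUSG00000035431, chromosome 12, 58211772 to 58214444), a Gi-coupled receptor through which somatostatin inhibits secretion, was at 1.62, 2.25, and 0.984 FPKM in Gm31629-/- mice and at 13.2, 7.17, and 15.6 FPKM in WT mice. Every Gm31629-/- mouse was below every WT mouse, and the log2 fold change was -2.28 (SE 0.31, limma adjusted p = 0.00171). Sstr1 was called lower in all 6 fits that each left out a mouse, with log2 fold changes from -2.58 to -2.07. Sstr2, the other somatostatin receptor tested, was at 1.88, 1.95, and 0.991 FPKM against 1.29, 1.4, and 0.621 FPKM, and its groups overlapped (log2 fold change 0.31, limma adjusted p = 0.319). Sstr5 was below the filter and lay under WT, at 0.298, 0.416, and 0.259 FPKM against 0.494, 0.630, and 0.662 FPKM. Also below the filter, Sstr4 lay above WT, at 0.153, 0.419, and 0.268 FPKM against 0, 0.0390, and 0.0374 FPKM, and Sstr3 overlapped it, at 0.291, 0.883, and 0.152 FPKM against 0.179, 0.198, and 0.190 FPKM.

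**Figure D3:**
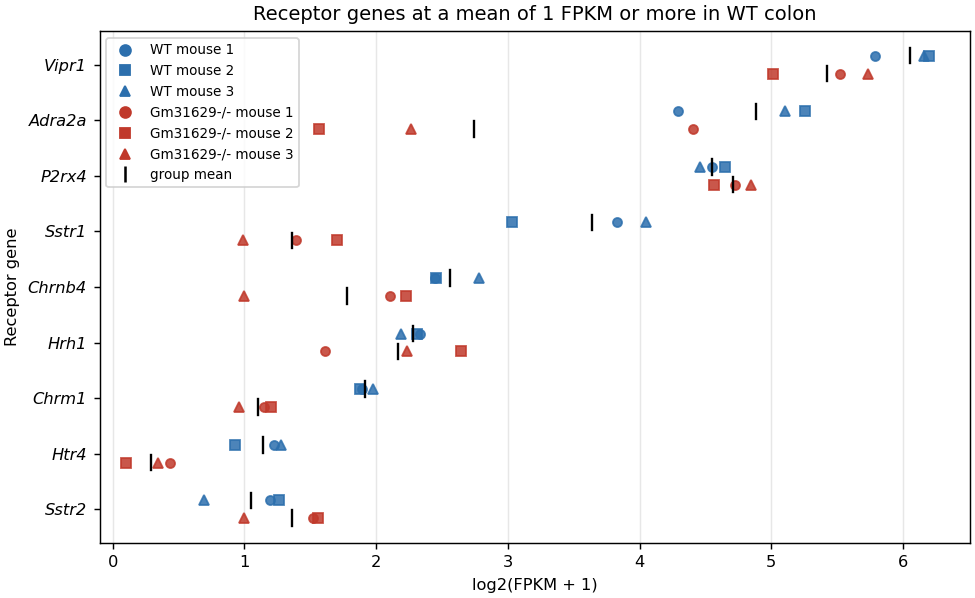
Level of the 9 receptor genes with a WT mean of at least 1 FPKM, in each mouse, as log2(FPKM + 1) on the x axis, with symbols by mouse and genotype and bars at the means of 3 mice. Sstr1 is lower in all 3 Gm31629-/- mice, Adra2a in mice 2 and 3 but not in mouse 1, and P2rx4 has overlapping groups between 21 and 27.8 FPKM.

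P2X receptors are ATP-gated ion channels. P2rx2, found on enteric and sensory neurons, was at 3.82, 4.74, and 1.78 FPKM in Gm31629-/- mice and at 0.0840, 0.453, and 0.289 FPKM in WT mice (log2 fold change 1.75 with SE 0.29, limma adjusted p = 0.00354). P2rx7, a channel of immune cells that drives inflammasome activation, was at 3.07, 5.07, and 2.37 FPKM against 1.01, 0.698, and 1.03 FPKM (log2 fold change 1.20 with SE 0.24, limma adjusted p = 0.00762), and without Gm31629-/- mouse 2 its change was 0.96, under the fold threshold. P2rx4, which lies 16109 bases from P2rx7 on chromosome 5, was the second most abundant receptor of the set in Gm31629-/- mice, and its level overlapped between the groups, at 25.4, 22.7, and 27.8 FPKM against 22.5, 24, and 21 FPKM. Its log2 fold change was 0.16 (SE 0.14, limma adjusted p = 0.379), -0.09 with median ratio scaling, and 0.89 with epithelial scaling. P2rx1, known from arterial muscle and platelets, was at 1.3, 0.826, and 1.41 FPKM against 0.371, 0.275, and 0.324 FPKM, for a log2 fold change of 0.71 inside the fold threshold (limma adjusted p = 0.0129). The 3 P2X genes below the filter all lay above WT without overlap.

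Agtr1a, the Gq-coupled angiotensin receptor of muscle, was at 5.19, 2.02, and 0.977 FPKM in Gm31629-/- mice and at 0.0194, 0.0399, and 0.0382 FPKM in WT mice (log2 fold change 1.69 with SE 0.38, limma adjusted p = 0.0118). Its near-identical copy Agtr1b was at 0.152, 0.202, and 0.279 FPKM against 0 in WT, and how fragments were divided between the copies is uncertain. Hrh1, the most abundant histamine receptor, was at 2.05, 5.26, and 3.69 FPKM against 4.03, 3.96, and 3.56 FPKM, and the WT values lay inside the range of the Gm31629-/- values (log2 fold change -0.11 with SE 0.27, limma adjusted p = 0.748). Hrh2 was below the filter, at 0.256, 0.593, and 0.284 FPKM against 0.0364, 0.0749, and 0.0717 FPKM.

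By coupling, called genes were found among the Gq-, Gs-, and Gi-coupled receptors and the channels, whereas Agtr2, which was put in none of these groups, was below the filter. Of the 17 Gq-coupled receptors, 9 were tested and 6 called higher, and of the 24 channel subunits 9 were tested and 6 called higher. Of the 9 Gs-coupled receptors, 6 were tested and 3 called higher. Of the 24 Gi-coupled receptors, 6 were tested, 2 called higher (Chrm2 and Npy4r), and 2 called lower (Sstr1 and Adra2a), so both lower calls were of Gi-coupled receptors. For comparison, 18.4% of all tested genes were called higher and 4.64% lower. Of the 30 receptors tested, 17 passed the filter only through their level in Gm31629-/- mice, so these counts are a description. No difference between the coupling groups was tested.

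The promoters of 4 receptors are shown to compare genes near 0 in WT colon (Tacr2, Chrna3, and Htr2b) with the most abundant receptor (Vipr1). Each is the 250 bases before the RefSeq start on GRCm38.p6, 5′ to 3′ on the strand of the gene, with capitals marking GGGCGG, the GC box, or its reverse complement.
Tacr2 (chr10:62252188-62252437, + strand): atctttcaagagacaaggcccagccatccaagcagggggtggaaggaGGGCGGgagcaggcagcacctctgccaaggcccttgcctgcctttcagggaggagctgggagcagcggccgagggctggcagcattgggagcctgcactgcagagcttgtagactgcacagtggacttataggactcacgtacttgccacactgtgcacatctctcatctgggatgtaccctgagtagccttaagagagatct
Chrna3 (chr9:55026563-55026812, - strand): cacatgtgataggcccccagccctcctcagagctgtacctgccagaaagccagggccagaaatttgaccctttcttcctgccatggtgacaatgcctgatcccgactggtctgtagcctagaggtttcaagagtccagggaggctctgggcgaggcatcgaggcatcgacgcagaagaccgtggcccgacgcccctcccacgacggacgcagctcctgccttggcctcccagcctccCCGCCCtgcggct
Htr2b (chr1:86111981-86112230, - strand): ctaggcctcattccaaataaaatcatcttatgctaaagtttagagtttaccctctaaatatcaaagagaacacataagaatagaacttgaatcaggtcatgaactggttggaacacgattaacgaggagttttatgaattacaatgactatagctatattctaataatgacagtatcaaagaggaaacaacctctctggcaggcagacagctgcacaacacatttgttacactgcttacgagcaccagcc
Vipr1 (chr9:121642466-121642715, + strand): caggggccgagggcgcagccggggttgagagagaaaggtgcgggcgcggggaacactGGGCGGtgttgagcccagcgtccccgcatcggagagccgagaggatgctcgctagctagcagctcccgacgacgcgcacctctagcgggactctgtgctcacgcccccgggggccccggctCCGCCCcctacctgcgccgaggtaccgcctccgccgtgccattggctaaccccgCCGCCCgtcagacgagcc
Vipr1 held 3 GC boxes at 72.8% GC, Tacr2 held 1 at 58.4% GC, Chrna3 held 1 at 63.2% GC, and Htr2b held 0 at 37.6% GC. RefSeq promoters of 300 bases (250 before and 50 after the start) were matched to 55 of the 75 receptor genes. On either strand, GGGCGG was found in 30 of these 55, or 54.5%, against 38.2% of all genes with a promoter, and in 6 of the 12 called higher that had one. TATAAA was found in 5 of the 55, against 15.7% of all genes. A CArG box, the motif bound by serum response factor in muscle genes, was found in 1 of the 55 (Npy5r), against 1.81% of all genes, and an RE1 element, bound by the repressor of neuronal genes, in 0 of the 55, against 0.0777%. These matches describe the letters of the window only.

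The genes that make, release, or clear the ligands of these receptors were followed in lists of 50 genes, of which 40 were tested, 23 were called higher, and 0 were called lower with limma (0 also at an unadjusted p under 0.05 and with limma voom on fragments). Over all tested genes, 18.4% were called higher and 4.64% lower. Several called genes, such as Vip, Dbh, Chat, and Slc18a3, had a WT mean under 0.5 FPKM. They passed the filter only through their level in Gm31629-/- mice, so these counts are a description. Of all 50 genes, 31 lay above WT without overlap and 2 below, against 31.0% and 12.6% of all rows. The neuropeptides showed the largest changes. Vip was at 36.5, 83.9, and 11.7 FPKM in Gm31629-/- mice against 0, 0.0163, and 0.0313 FPKM in WT mice (log2 fold change 5.08, limma adjusted p = 0.0011), and Penk, the enkephalin precursor, changed by 4.52 and Gal, which encodes galanin, by 3.57. Tac1, the precursor of substance P and neurokinin A, was at 22.1, 35.7, and 18.9 FPKM against 2.93, 2.11, and 1.21 FPKM (log2 fold change 3.10, limma adjusted p = 0.00053). The enteroendocrine hormones Sst, Pyy, and Ppy had log2 fold changes of 2.81, 2.60, and 3.19, and Sst, the ligand of Sstr1, was at 80.7, 127, and 44.6 FPKM against 9.48, 8.90, and 12.4 FPKM. Sst was thus higher and Sstr1 lower, but Sstr2 was not called and the other somatostatin receptors were not tested. For the tachykinins, Tac1, Tacr1, and Tacr2 were higher. For VIP, the ligand was higher and neither receptor was called. The remaining peptide genes called were Npy (1.39) and Pdyn (1.48), which encode neuropeptide Y and prodynorphin.

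For the small transmitters, the vesicular acetylcholine transporter Slc18a3 was at 5.92, 9.59, and 2.98 FPKM against 0.0672, 0.161, and 0.220 FPKM (log2 fold change 2.53, limma adjusted p = 0.00163), and Chat, which makes acetylcholine, changed by 1.05 (limma adjusted p = 0.00968). Dbh, which makes norepinephrine from dopamine, was at 5.35, 12.4, and 2.08 FPKM against 0, 0, and 0.0395 FPKM (log2 fold change 2.66, limma adjusted p = 0.0049), whereas Th, the first enzyme of the pathway, was below the filter, at 0.161 FPKM or less in every mouse. The monoamine genes Slc18a2 (vesicle loading) and Maob (degradation) changed by 1.25 and 1.19. Tph1, the enzyme that makes serotonin in the mucosa, was not called (log2 fold change -0.01, limma adjusted p = 0.985), with 1.28, 9.89, and 1.43 FPKM against 2.92, 2.99, and 2.97 FPKM, and only Gm31629-/- mouse 2 was above WT. The serotonin transporter Slc6a4 was called higher (1.36), as were Hdc (1.58) and Hnmt (1.12), which make and degrade histamine. Entpd1, Entpd3, and Nt5e, the ectoenzymes that degrade extracellular nucleotides, changed by 2.91, 1.5, and 2.66. Agt and Ace, which supply angiotensin, changed by 1.72 and 1.41, whereas Ren1, which encodes renin, was below the filter at 0.197 FPKM or less in every mouse. Edn1, an endothelin precursor, changed by 1.52. The other precursors Edn2 (-1.38) and Edn3 (-0.49) were not called and their groups overlapped. Ece1, the endothelin-converting enzyme, lay below WT without overlap, at -0.53 (limma adjusted p = 0.0361), inside the fold threshold.

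Downstream signaling genes comprised 45, of which 44 were tested, 22 called higher, and 4 called lower, against 18.4% and 4.64% of all tested genes. A gene with a WT mean under 0.5 FPKM could pass the filter only through Gm31629-/- mice, so these counts are a description. Of all 45, 31 lay above WT without overlap and 8 below, against 31.0% and 12.6% of all rows. The 4 lower calls numbered 2 without mouse 2 of either genotype and 0 with scaling to the epithelial markers. Among the regulators of receptor signaling, Rgs5, an inhibitor of G proteins in mural cells, was at 89.2, 54.3, and 30.2 FPKM against 0.131, 0.965, and 0.246 FPKM (log2 fold change 5.26, limma adjusted p = 0.000281), and Rgs4, Rgs2, Arrb2, and Grk3 changed by 2.84, 2.12, 2.19, and 1.37. In the contractile arm, Ppp1r14a, the inhibitor of myosin phosphatase, changed by 3.82, Mylk, the myosin light chain kinase, by 1.58, Rock1 by 1.26, Plcb4 by 1.13, and Itpr1 by 1.04. The cGMP arm that relaxes muscle held 6 genes, of which 5 were tested and called higher. These were Mrvi1 (3.35), Nos1 (2.55), Gucy1b1 (2.49), Gucy1a1 (1.74), and Pde5a (1.32). Among the cAMP genes, Adcy5, Adcy4, Adcy7, Gnai1, Gnao1, Prkar2b, and Prkacb changed by 2.61, 2.18, 1.77, 2.11, 1.62, 1.51, and 1.45. All 4 lower genes were abundant in WT colon. Gna11, a Gq-class alpha subunit, was at 102, 42.2, and 92.0 FPKM against 145, 180, and 182 FPKM (log2 fold change -1.18, limma adjusted p = 0.0241), and Adcy6, Itpr3, and Prkca changed by -1.31, -1.19, and -1.07.

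Markers of muscle, nerve, stromal, and immune cells were higher in Gm31629-/- mice, and markers of epithelium were lower or not called. The summed FPKM of 12 smooth muscle markers was 1310 to 2018 in Gm31629-/- mice and 13.1 to 34.4 in WT mice, with 10 called higher and all 12 above WT without overlap, and Myocd alone was at 0 in a WT mouse. For 12 enteric neuron markers the ranges were 53.6 to 199 and 2.80 to 5.60, with 10 called higher and all 12 above WT, and Elavl4 was at 0 in all 3 WT mice. The 6 enteric glia markers, all called higher, summed to 11.3 to 33.5 against 0.150 to 0.285, with Cdh19 at 0 in all 3 WT mice. The lists of 8 fibroblast, 8 endothelial, 7 macrophage, and 7 neutrophil markers were called higher throughout, and 6 of 8 adipocyte markers, 6 of 7 B and plasma cell markers, 3 of 7 enteroendocrine markers, and 2 of 6 T cell markers were called higher. Of 3 markers of interstitial cells of Cajal, Etv1 was called higher (1.04), whereas Kit (0.02) and Ano1 (-0.02) were not called. Mast cell markers were near 0, with sums of 1.45 to 6.47 against 0.524 to 1.34 FPKM and 2 of 7 tested, and of 9 skeletal muscle markers found only Ckm was called (1.17). The 11 epithelial markers summed to 7082 to 8574 FPKM in Gm31629-/- mice and to 11854 to 12846 FPKM in WT mice, with Cdx2 (-3.14), Krt8 (-1.05), and Krt19 called lower. Of all tested genes, 18.4% were called higher and 4.64% lower. The 6 glia markers together summed to under 0.5 FPKM in every WT mouse, so each passed the filter only through Gm31629-/- mice. The counts of called markers are therefore a description. The part of the marker lists in the receptor changes was not tested.

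**Figure D4:**
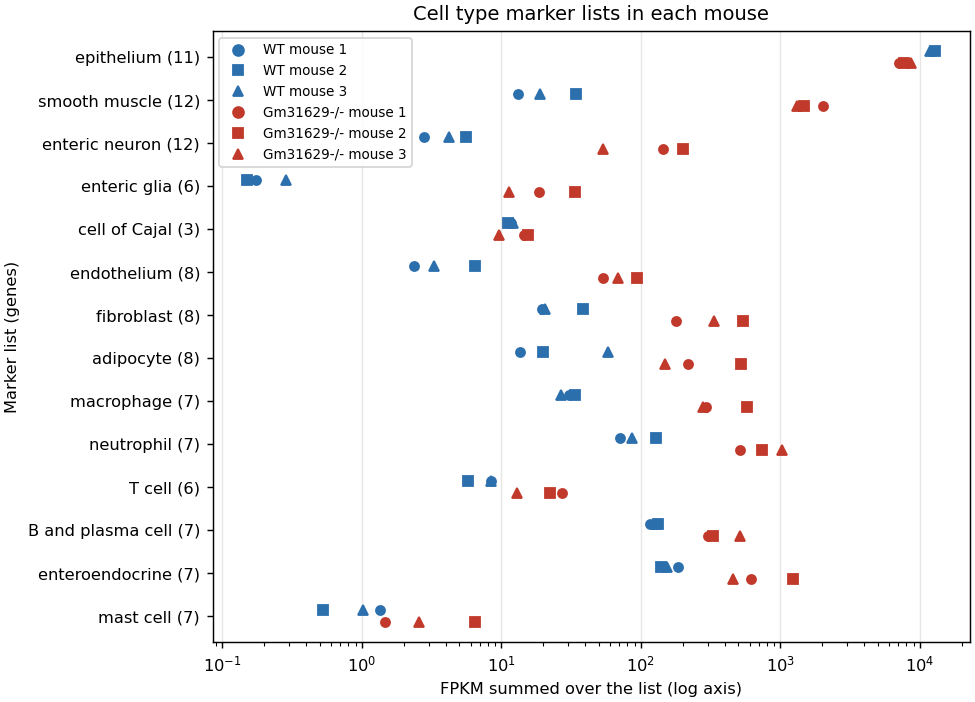
FPKM summed over each cell type marker list (log axis) in each mouse, with the number of genes in brackets, blue for WT and red for Gm31629-/- mice. Smooth muscle, neuron, and glia sums are separated by more than the spread within either genotype, whereas the sums for interstitial cells of Cajal overlap and the epithelial sums are lower in Gm31629-/- mice.

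The 3 Gm31629-/- mice contributed unequally, and not in the same order for every receptor. With the FPKM of the 3 mice summed for each called gene, mouse 1 held the largest share and mouse 3 the smallest for 5 genes (Agtr1a, Chrm2, Htr2b, Npy4r, and Tacr2), as was also the case for the smooth muscle (42.1%, 30.6%, and 27.3% for mice 1, 2, and 3), skeletal muscle (67.5%, 26.1%, and 6.35%), and T cell (43.8%, 35.6%, and 20.6%) markers. Mouse 1 held 63.4% of Agtr1a, 59.5% of Chrm2, and 56.2% of Tacr2. For 6 genes, among them Chrna3, Htr3a, Htr3b, P2rx2, and P2rx7, mouse 2 was largest and mouse 3 smallest, the order of the enteric neuron (36.3%, 50.2%, and 13.5%), glia (29.4%, 52.8%, and 17.8%), adipocyte, macrophage, enteroendocrine (26.6%, 53.5%, and 19.9%), and Cajal cell (36.6%, 39.1%, and 24.3%) markers. Shares of Htr3a were 37.8%, 51.6%, and 10.6%, and those of Chrna3 were 38.1%, 52.3%, and 9.66%. For the other 6 (Adrb3, Chrnb1, Ednra, Ednrb, Htr7, and Tacr1) mouse 2 was largest and mouse 1 smallest, the order of the fibroblast (17.0%, 51.3%, and 31.6%), endothelial (24.8%, 43.5%, and 31.7%), and mast cell (13.8%, 61.7%, and 24.5%) markers. Ednra had shares of 8.18%, 55.0%, and 36.8%. Epithelial, neutrophil, and B and plasma cell markers had mouse 3 largest and mouse 1 smallest, an order that none of these receptors had. Adrb3 (16.4%, 63.9%, and 19.7%) did not take the order of the adipocyte markers (24.4%, 58.9%, and 16.7%). These orders rest on 3 mice and are a description of the libraries.

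**Figure D5:**
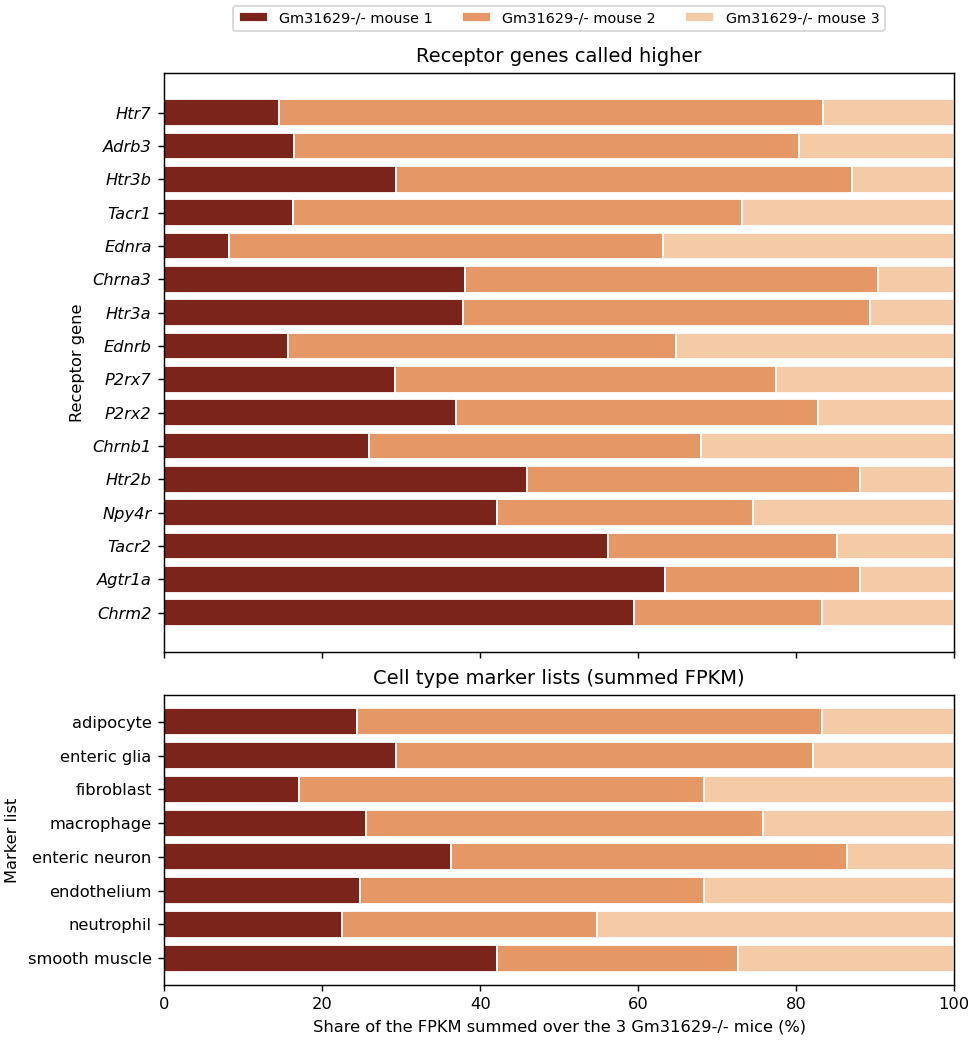
Share of the FPKM summed over the 3 Gm31629-/- mice (%, x axis) that came from each mouse, for 16 of the 17 receptor genes called higher (top) and for 8 marker lists (bottom). Chrm2, Agtr1a, and Tacr2 take most from mouse 1, Htr7, Adrb3, and Tacr1 take most from mouse 2, and mouse 3 does not hold the largest share of any gene shown.

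Of the 17 genes called higher, 13 were called in each of the 6 fits that left out a mouse, P2rx7 in 5, and Chrnb1 in 4. Htr7 was called in 2 of the 5 such fits in which it passed the filter, and Htr3b in 1 of 4. Without Gm31629-/- mouse 1, the library with Y-linked transcripts, 16 receptor genes were higher and 2 were lower. On the deposited scale, tested genes as a whole had a median log2 fold change of 0.15, which became -0.06 with median ratio scaling and 0.73 with scaling to the epithelial markers, and receptor genes called higher numbered 14 and 19, respectively, under these.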

How the data were processed

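Distal colon RNA of 3 Gm31629-/- and 3 WT mice was sequenced, 1 library per mouse, from TruSeq libraries. The authors deposited FPKM values for 27546 genes, and the submitters' processing notes name HISAT2 2.1.0, HTSeq 0.6.0, and GRCm38. The strand setting of the counting is not given in the sources used here. The authors compared groups with DEGseq, which was not repeated here. Groups and replicate numbers came from the labels.

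GENCODE M21 (GRCm38) gave the symbols and exon lengths, with 27488 of the 27546 identifiers found in it. Fragments were recovered from the size of 1 fragment in each library, and 96.3% to 97.3% of values of up to 20 fragments were within 0.1 of a whole number. A value of 0 in every mouse of a group allows up to 3 fragments over the group, and intervals on ratios (95%, exact binomial) cover counting error only.

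The test was limma 3.58.1 (R 4.3.3) with lmFit and a trended eBayes on log2(FPKM + 1), a scale that understates the change of genes with low FPKM, for genes with a mean of at least 0.5 FPKM, with Benjamini-Hochberg adjustment over 14657 genes. P-values set the difference between group means against the spread between libraries, moderated across genes. Each library was taken as 1 mouse, although the methods describe the RNA as pooled. Members and gene lists were chosen with earlier results of these data known. Given in full were called receptor genes with a mean of at least 1 FPKM, every receptor gene called lower, and the most abundant gene of each class with none called, and other receptor genes are given by value or count. Of the other lists, called genes and sole makers of a ligand were named. Of the receptor genes counted, 1 is not reported here by name. Promoter sequences are from RefSeq (GRCm38.p6). Alternatives tried were TPM and median ratio scaling, a pseudocount of 0.1, no filter, a mean of at least 1 FPKM, eBayes without a trend, a replicate block, unadjusted p, limma voom on recovered fragments, and leaving out each mouse. Scaling to 11 epithelial markers was chosen after seeing the data. The fit was tested on simulated data of 14657 genes, 200 of them shifted. A log2 shift of 1.5 was called for 75.5% of the shifted genes (3 false calls) and a shift of 2.5 for 90.5% (6 false calls). The simulation gave both groups the same spread for each gene. In the data, libraries correlated at 0.915 to 0.937 among Gm31629-/- mice and at 0.979 to 0.985 among WT mice. The simulated rates may therefore not hold for the data.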

Additional observations from a re-analysis of the deposited data

How the results depend on the processing

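For single genes of the set (Agtrap included), 448 values under the alternatives kept their direction and side of the threshold, 11 gained a call, 20 lost one, and 4 changed direction. These 4 were of genes not called in either fit, namely Vipr1 (-0.63) at 0.11 and Hrh1 (-0.11) at 0.48 with epithelial scaling, Hrh1 at 0.16 without Gm31629-/- mouse 1 (-0.36 to 0.16 over the fits that left out a mouse), and P2rx4 (0.16) at -0.091 with median ratio scaling. The number of receptor genes called higher (17) ranged from 14 to 19 over the settings other than leaving out a mouse and from 13 to 18 when a mouse was left out. The number called lower (2) was 4 with a pseudocount of 0.1 or with voom, where Htr4 and Chrm1 were added, 1 with no filter, with the replicate block, or with epithelial scaling, and 1 to 2 when a mouse was left out (1 in each such fit but that without Gm31629-/- mouse 1). Adra2a accounted for the loss with no filter (adjusted p = 0.0809), the replicate block (0.0672), and epithelial scaling (0.0928) in limma, and the cause was not tested. Same-numbered mice share only a number (correlations of their deviations 0.04, -0.11, and 0.01), and the replicate block left 17 receptor genes higher and 1 lower. Chrnb1 and Htr7 fell under the fold threshold with median ratio scaling (0.91 and 0.99).

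The median log2 fold change of tested receptor genes (1.08) was 2.47 with a pseudocount of 0.1, 0.25 with no filter, 1.56 with a mean of at least 1 FPKM, 3.09 with voom, and 0.95 to 1.28 when a mouse was left out, and the set of genes tested changes with the filter. Over all genes, 2704 were higher and 680 lower. Median ratio scaling gave 2232 and 1217, and epithelial scaling gave 5146 and 208. Ligand genes called lower numbered 0, or 0 to 1 when a mouse was left out, with the 1 arising without Gm31629-/- mouse 3. Signaling genes called lower numbered 4, 2 to 3 when a mouse was left out (2 without mouse 2 of either genotype), and 0 with epithelial scaling. Receptor genes at a few fragments in WT mice have ratios limited by counting, and only a lower bound can be given where WT was at 0.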

Other observations

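Receptors outside the families above were followed in a list of 55 genes, of which 32 were tested, 22 were called higher with limma, and 10 were not called, against 18.4% of all tested genes called higher. Some of those tested, such as Bdkrb1, Glp2r, and Cnr1, had a WT mean under 0.5 FPKM. They passed the filter only through their level in Gm31629-/- mice, so the count of calls is a description. Of all 55, 36 lay above WT without overlap, against 31.0% of all rows. The called genes included receptors of vessels. F2r, the thrombin receptor, was at 11.5, 26.5, and 20.8 FPKM in Gm31629-/- mice and 1.10, 0.832, and 0.558 FPKM in WT mice (log2 fold change 3.43, limma adjusted p = 0.000401). S1pr1, the sphingosine phosphate receptor of endothelium and lymphocytes, changed by 3.23, and S1pr3 by 2.41. The receptor for adrenomedullin and CGRP, Calcrl, changed by 2.28, its partner Ramp2 by 2.88, and Ramp3 by 2.15, whereas the partner Ramp1, abundant in both groups, was not called (-0.15, limma adjusted p = 0.649). Both bradykinin receptors were called higher, Bdkrb1 at 0.985, 14.3, and 7.89 FPKM against 0.151, 0.619, and 0.222 FPKM and Bdkrb2 at 3.38, 22.6, and 16.5 FPKM against 0.884, 1.96, and 0.996 FPKM, and in both Gm31629-/- mouse 1 was the lowest of the knockout mice. The natriuretic peptide receptors Npr1 and Npr2 changed by 2.01 and 2.80.

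Of the receptors at more than 10 FPKM in every mouse, none of F2rl1, P2ry2, and Ramp1 was called. F2rl1, the protease-activated receptor of enterocytes, was at 89.6, 74.8, and 71.8 FPKM against 71.7, 85.9, and 66.5 FPKM (log2 fold change 0.08, limma adjusted p = 0.722), and P2ry2, a nucleotide receptor, was at 14.9, 16.7, and 15.1 FPKM against 13.1, 18.8, and 14 FPKM (0.04, limma adjusted p = 0.874). Glp2r, the receptor for the intestinotrophic hormone GLP-2, was at 2.83, 2.5, and 2.59 FPKM against 0.130, 0.153, and 0.0915 FPKM (log2 fold change 1.69, limma adjusted p = 0.00035). Cnr1, the cannabinoid receptor of neurons, was at 2.64, 2.08, and 0.389 FPKM against 0 in all 3 WT mice.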
